A study of Homo sapiens with 30 samples.

Results

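WNT signalling genes were examined as 46 members out of 20037 protein-coding genes: 19 WNT ligands, 10 Frizzled receptors, 10 secreted antagonists (SFRP1, SFRP2, SFRP4, SFRP5, FRZB, DKK1 to DKK4 and WIF1), 4 R-spondins, and the target and effector genes LEF1, TCF7 and AXIN2. The members were taken by name, and all 46 matched the RefSeq annotation of GRCh38.p14, the assembly behind hg38. The data are CUT&RUN peak lists for RING1 and for RNF2, the paralogous ubiquitin ligases of Polycomb repressive complex 1 (PRC1), in wild-type neural progenitor cells, a monolayer derived from the human embryonic stem cell line H9 and kept in a medium with FGF. The series also holds lines with edited RING1 and RNF2, which were not analysed here. In CUT&RUN an antibody tethers a nuclease that cuts out the DNA around the bound protein. There were 2 wild-type libraries per antibody and 4 peak lists, paired by a number in their names into set A and set B, which no label ties to a replicate or to separate cultures. Set A held 12891 RING1 and 16263 RNF2 peaks, and set B held 659 and 5901, and the sources used here do not state how deeply each library was sequenced, so a missing peak is only a missing call. These files hold no expression values, so the neural progenitor label could not be checked against marker genes.

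WNT ligands are secreted lipid-modified proteins that bind Frizzled receptors and, with the co-receptors LRP5 and LRP6, keep β-catenin from being degraded, so that it can act with TCF and LEF factors on target genes. SFRP proteins, FRZB and WIF1 bind WNT ligands outside the cell, and DKK1, DKK2 and DKK4 act on the co-receptors. R-spondins prolong the life of the receptors at the cell surface. In the developing neural tube WNT signals pattern the dorsal side and the midbrain and sustain dividing progenitors, and PRC1 is known for silencing developmental regulators outside their own tissue through ubiquitin on histone H2A.

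Most WNT pathway members carried a RING1 and an RNF2 peak in set A, and 56.5% of them carried RNF2 in set B. A member was counted where a peak lay within 2 kb of either end of the annotated gene. RING1 of set A was at 32 of 46 members (69.6%), against 45.6% of all protein-coding genes, and RNF2 of set A was at 34 (73.9%), against 56.1%. RNF2 of set B was at 26 members, against 21.7% of all genes, and RNF2 in both sets was at 24 (52.2%), against 20.8%. RING1 of set B was at 0 members, against 1.32% of all genes, so no member had RING1 in both sets (1.31%) or was in all 4 lists (1.28%). Of the 24 members with RNF2 in both sets, 23 also had RING1 of set A. Over all genes this held for 3828 of the 4161 with RNF2 in both sets, so it was common there too. The combination was thus at 23 of the 46 members, against 19.1% of all genes. In set A, 31 members (67.4%) had both proteins, against 43.0% of all genes. Both proteins in set A with no peak in set B were seen at 8 of the 46 members (17.4%), against 23.9% of all genes. The authors consolidated 4255 regions, all of which overlapped an RNF2 peak of set A and 4239 an RNF2 peak of set B, and 24 members had such a region at an end, each of them among the 24 with RNF2 in both sets (21.0% of all genes had one).

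**Figure D1:**
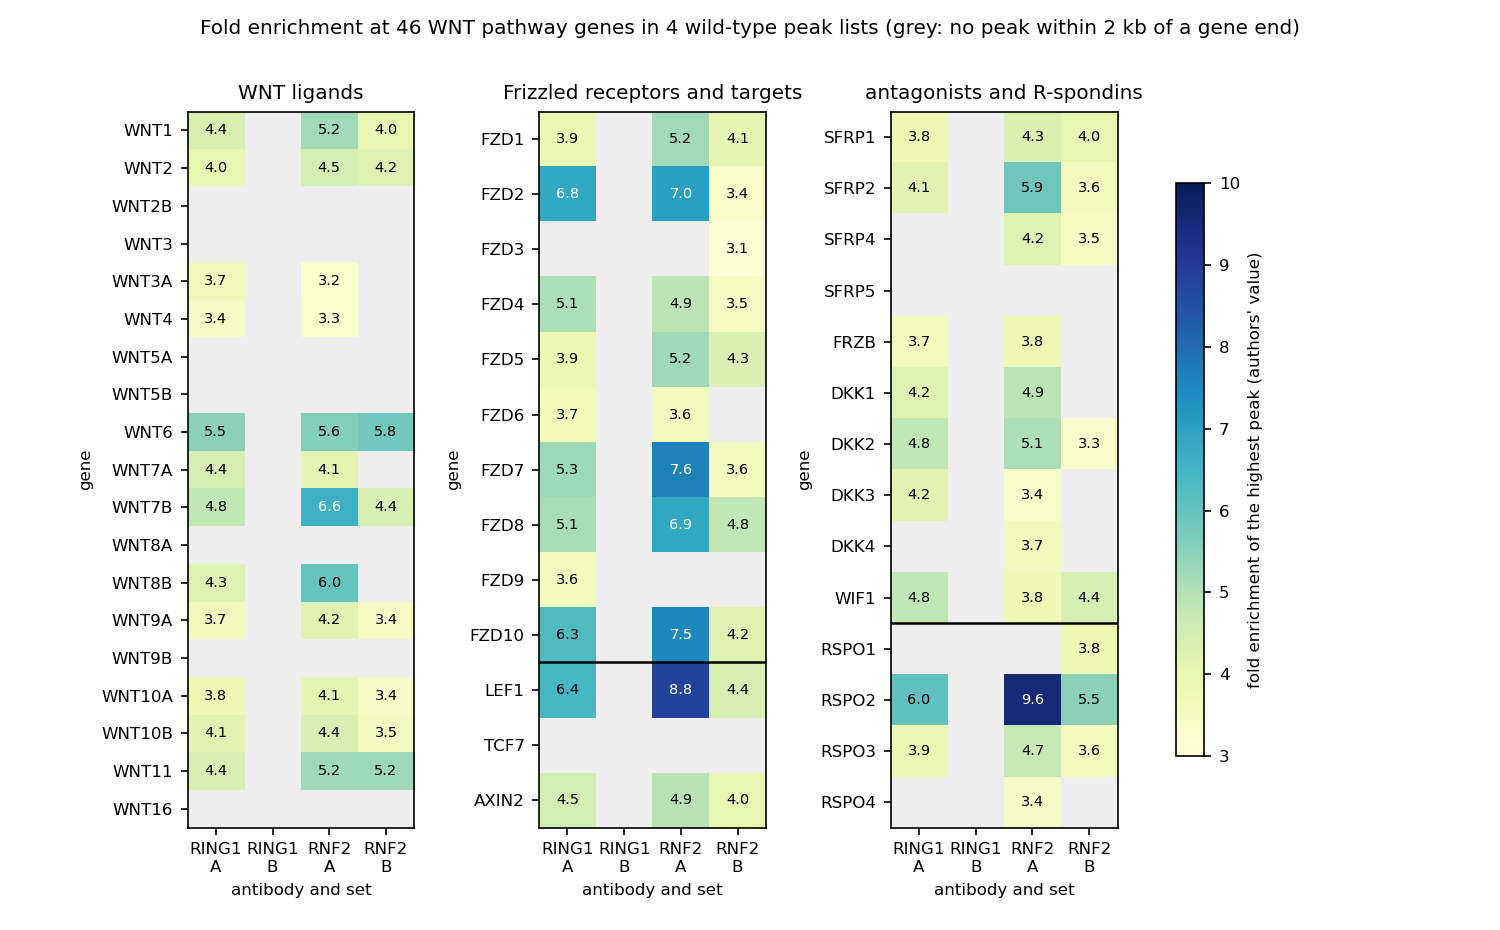
Fold enrichment of the highest peak within 2 kb of a gene end, by gene (rows) and peak list (columns), as the authors' peak caller gave it; grey cells have no peak. The RING1 set B column is empty for all 46 genes, and the highest value is 9.55 for RSPO2 with RNF2 of set A.

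Frizzled genes had the highest share with RNF2 in set B and WNT ligands the lowest. Frizzled receptors had RING1 of set A at 9 of 10 genes and RNF2 at 8 in each set. WNT ligands had RING1 at 12 of 19 in set A and RNF2 at 12 there and at 8 in set B. The antagonists had RING1 at 7 of 10 in set A and RNF2 at 9 there and at 5 in set B. R-spondins had RING1 of set A at 2 of 4 genes and RNF2 at 3 in each set, while LEF1 and AXIN2, but not TCF7, had peaks in these 3 lists. The shares of all genes were 45.6% for RING1 of set A, 56.1% for RNF2 of set A and 21.7% for RNF2 of set B. The ligands for RNF2 of set A (63.2%) and the R-spondins for RING1 of set A (2 of 4) were not far above these shares. RNF2 was present in both sets at 7 Frizzled genes, 8 ligands, 5 antagonists, 2 R-spondins and 2 targets. With 2 lists per antibody and classes of 3 to 19 genes, these counts are descriptions and the differences between classes were not tested.

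**Figure D2:**
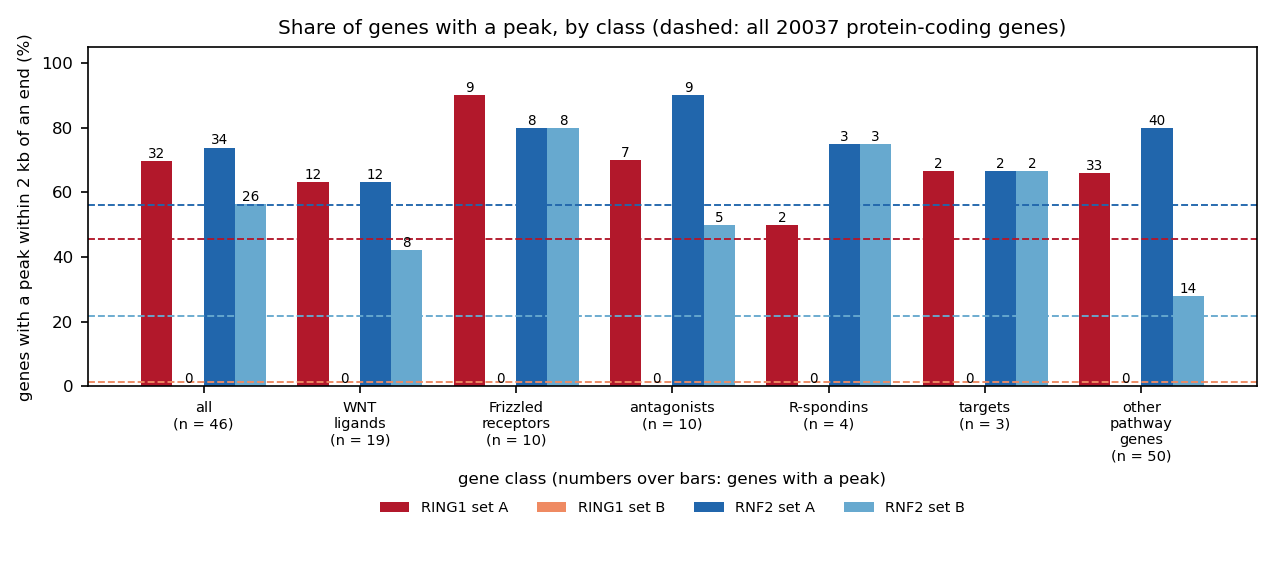
Percent of genes with a peak within 2 kb of an end for all members, each class and 50 other WNT pathway genes (bars, with the number of genes above each), and for all 20037 protein-coding genes (dashed lines, same colours). Frizzled genes reach 80.0% for RNF2 of set B, where the line for all genes is at 21.7%.

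Peaks at most members were wider than the median over all genes with a peak in each of the 3 lists, and their fold enrichment was also higher in RNF2 of set A. The fold enrichment used here is the authors' value per peak over background, and the highest peak was taken where a gene had several. The median width at members was 1587 bp for RING1 of set A, against 802 bp over all genes with a peak, 2411 bp against 1156 bp for RNF2 of set A, and 1959 bp against 897 bp for RNF2 of set B. A width above the median of all genes with a peak was seen at 25 of 32 members for RING1 of set A, at 25 of 34 for RNF2 of set A and at 20 of 26 for RNF2 of set B. Median fold enrichment at members was 4.23 against 4.19, 4.89 against 4.33 and 3.97 against 3.85 in the same 3 lists. A fold enrichment above the median of all genes with a peak was seen at 17 of 32, 22 of 34 and 14 of 26 members. The widest peaks by class in RNF2 of set A were those of FZD10 (12131 bp), WNT1 (10479 bp), LEF1 (8941 bp), RSPO2 (3782 bp) and DKK2 (3677 bp). In RNF2 of set B they were LEF1 (7157 bp), RSPO2 (5573 bp), FZD10 (5548 bp), WNT11 (5209 bp) and SFRP1 (2161 bp), and in RING1 of set A FZD10 (8790 bp), LEF1 (7716 bp), WNT11 (5585 bp), RSPO2 (2921 bp) and SFRP2 (2230 bp).

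**Figure D3:**
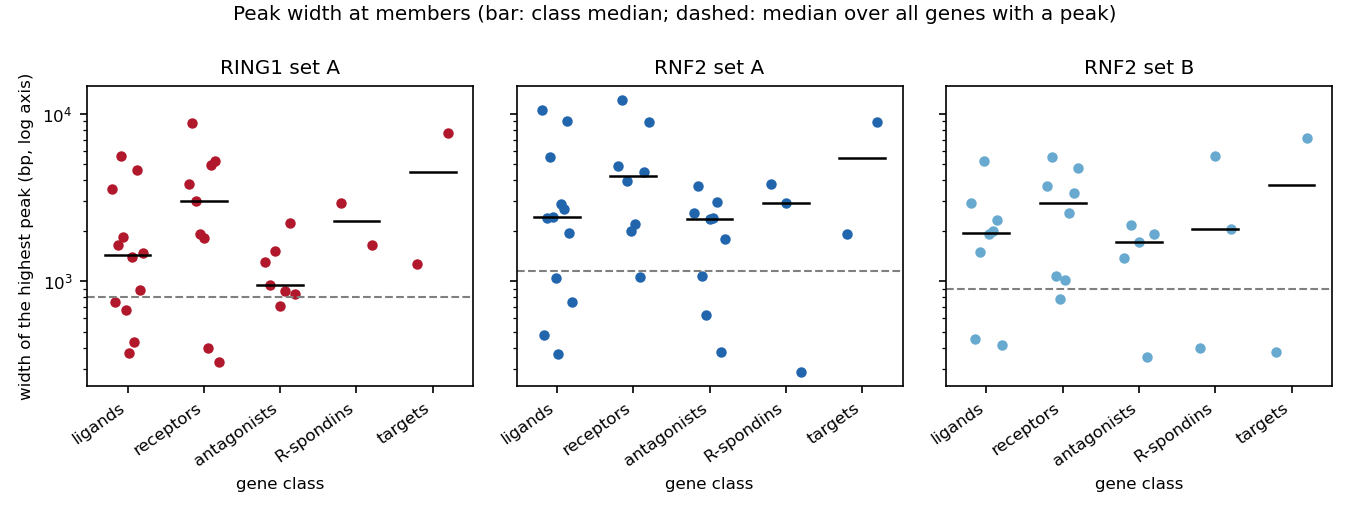
Width of the highest peak at each member (points, log axis) by class in RING1 of set A, RNF2 of set A and RNF2 of set B, with class medians (bars) and the median over all genes with a peak in that list (dashed, 802, 1156 and 897 bp). Most points lie above the dashed line, and FZD10 is the highest Frizzled point in each list.

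Few members were among the strongest sites of a list, though in each RNF2 list their share was above that of all genes. These shares rest on few members and were not tested. Peaks with a −log10 q of 5 or more marked 4 members for RING1 of set A (8.70%, against 7.97% of all genes), namely FZD2, FZD10, RSPO2 and LEF1. For RNF2 of set A they marked 11 members (23.9%, against 15.7%), among them WNT6, WNT7B, WNT8B and SFRP2, and for RNF2 of set B they marked WNT6, WNT11 and RSPO2 (6.52%, against 2.56%). WNT6 and RSPO2 were marked in both RNF2 lists (4.35%, against 2.41%), and RING1 of set B marked 0 members (0.025% of all genes). In lists shortened to the 659 peaks with the highest −log10 q, FZD2 was the 1 member left for RING1 of set A (2.17%, against 3.70% of all genes). FZD7, RSPO2 and LEF1 were left for RNF2 of set A (6.52%, against 3.91%), and WNT6, WNT11, FZD8 and RSPO2 for RNF2 of set B (8.70%, against 3.55%). RSPO2 alone was left in both RNF2 lists (2.17%, against 2.2%). Among the strongest RING1 peaks of set A the share of members was close to that of all genes.

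Among the ligands, WNT6 led by the smaller of its RNF2 values in sets A and B. WNT6 (chr2:218859805-218874233, hg38) had RNF2 fold enrichments of 5.57 and 5.80 (sets A and B) and a value of 5.47 for RING1 of set A. Where a gene has a pair of RNF2 values, the first is of set A and the second of set B, and RING1 values are of set A. The RNF2 peaks of WNT6 spanned the RefSeq start site, from position −1129 to 1768 bp in set A and from −471 to 1521 bp in set B, while the RING1 peak ran from 220 to 1608 bp. WNT6 ranked 323 among the 4161 genes with RNF2 in both sets by the same measure. WNT11 (chr11:76186325-76210761), a ligand of β-catenin-independent signalling, followed with 5.23 and 5.24 for RNF2 under peaks of 5524 and 5209 bp, and 4.38 for RING1 of set A under 5585 bp. WNT7B, a ligand of cortex and of brain blood vessels in mouse, had 6.59 and 4.42 for RNF2 and 4.82 for RING1, and its RNF2 peak covered 9051 bp in set A and 2322 bp in set B. WNT2 (lung development in mouse) had 4.45 and 4.19 for RNF2 and 3.97 for RING1, under peaks of 1836 to 2423 bp.

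WNT1, needed for the midbrain in mouse, had RNF2 fold enrichments of 5.21 and 3.98 (sets A and B) and a RING1 value of 4.35. Its RNF2 peak of set A reached from position −533 to 9945 bp relative to the start site, beyond the far end of the 4299 bp gene. The values of WNT9A, a ligand of joint formation in mouse, were 4.18 and 3.44 for RNF2 and 3.66 for RING1, and those of WNT10B, an inhibitor of fat cell formation, were 4.38 and 3.5 for RNF2 and 4.12 for RING1. The 4 ligands with both proteins in set A and no peak in set B were WNT3A, WNT4, WNT7A and WNT8B. WNT4, a ligand of kidney and ovary development, had narrow peaks of 374 bp for RING1 (3.42) and 367 bp for RNF2 (3.30), and the RNF2 value was at the 9.18th percentile of fold in its list. WNT3A, a dorsal neural tube ligand, had 3.71 for RING1 and 3.23 for RNF2, and the RNF2 peak ended 1540 bp before the start site. WNT7A, the close paralog of WNT7B, had 4.42 for RING1 and 4.10 for RNF2.

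Several ligand genes lie in neighbouring pairs, and their calls are described here pair by pair. How often neighbouring genes have the same calls in general is not given here. WNT1 and WNT10B on chromosome 12, 6.59 kb apart, both had RING1 of set A and RNF2 of both sets. WNT6 and WNT10A on chromosome 2, with a gap of −0.12 kb (their annotated spans overlap), both did as well, but they shared 1 peak in each of these 3 lists at the end of WNT6. The highest RNF2 peak of set A at WNT10A, a ligand of tooth and skin development, had 4.09 and lay at its far end. So did its highest RING1 peak of set A (3.79). The shared peaks had 3.43 for RNF2 and 3.48 for RING1 in set A. For RNF2 of set B the value of WNT10A was 3.4, and the shared peak of 454 bp was the only one at a gene end. WNT10A had no peak of RING1 of set A or RNF2 of set B within 2 kb of its start site, which lies 6736 bp inside the gene. WNT3A and WNT9A on chromosome 1, 59.06 kb apart, both had RING1 and RNF2 in set A, and only WNT9A had RNF2 in set B. WNT3 and WNT9B on chromosome 17, 14.5 kb apart, had no peak in any list. WNT8B, a forebrain ligand, was called from peaks around its far end, and no list had a peak within 2 kb of its start site. Its highest peaks, with 4.25 for RING1 and 5.97 for RNF2 of set A, lay beyond that end and also met an end of SEC31B. Its nearest peaks, with 3.8 for RING1 and 4.67 for RNF2, lay inside the gene, 739 and 743 bp from the same end.

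Among the Frizzled receptors, FZD8, FZD10, FZD7 and FZD2 lay in set A under long peaks that spread over much or all of these short genes. FZD8 (chr10:35638247-35642296), a forebrain receptor in mouse, had RNF2 values of 6.85 and 4.83 (sets A and B) and a RING1 value of 5.13. The 8920 bp RNF2 peak of set A exceeded the gene's own 4050 bp, and the same peaks met an end of the uncharacterised gene LOC124902528. FZD10 (3277 bp) had 7.53 and 4.20 for RNF2 and 6.31 for RING1. FZD7 (4587 bp), a receptor of stem and progenitor cells, had 7.63 and 3.62 for RNF2 and 5.27 for RING1. FZD2 (3779 bp) had 7.03 and 3.36 for RNF2 and 6.85 for RING1, the highest RING1 value of any member. Its RNF2 peak spanned 3977 bp in set A and 1073 bp in set B.

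FZD5, an eye field receptor, had RNF2 values of 5.23 and 4.32 and a RING1 value of 3.90, all under peaks over the start site. FZD1 had 5.21 and 4.06 for RNF2 and 3.92 for RING1. FZD4, the receptor of norrin in retinal vessels, had 4.88 and 3.47 for RNF2 and 5.08 for RING1, and its set A peaks also met an end of PRSS23. The last 3 receptors departed from the class. FZD6, a planar polarity receptor, had 3.72 for RING1 and 3.65 for RNF2 in set A and no peak in set B. FZD9 was the 1 member with RING1 of set A alone (2.17%, against 2.37% of all genes), with a value of 3.63 under 328 bp, and the nearest RNF2 peaks lay 85240 and 86003 bp from its ends in sets A and B. FZD3, an axon guidance receptor, had RNF2 of set B alone (3.13, 782 bp), with the nearest RNF2 peak of set A at 3389 bp. Close to the limit of 2 kb, a RING1 peak of set B (5.11, 315 bp) lay 2285 bp from FZD10, inside the RING1 peak of set A there. It was the nearest RING1 peak of set B to any member outside the limit, and no member had one inside it. Taking only the nearest peak of each member in the other lists, the called members farthest from a peak were WNT8B (739 bp, RING1 of set A), WNT3A (1540 bp, RNF2 of set A) and WNT10B (1008 bp, RNF2 of set B). Among members without a call in that list, the closest were RSPO1 (3902 bp), WNT16 (2841 bp) and WNT3A (3933 bp).

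The antagonists had RNF2 of set A at all members except SFRP5, with a median value of 4.23, against 6.04 at the 8 Frizzled genes with such a peak. SFRP2 had 5.86 and 3.58 for RNF2 and 4.14 for RING1, and the RING1 peak ended 55 bp before the start site. SFRP1 had 4.33 and 3.96 for RNF2 and 3.8 for RING1. DKK2, which acts on the LRP co-receptors, had 5.06 and 3.31 for RNF2 and 4.81 for RING1. WIF1, which binds WNT ligands directly, was higher for RNF2 in set B (4.40) than in set A (3.79) and had 4.83 for RING1. SFRP4 was the 1 member with RNF2 in both sets (4.23 and 3.47) and no RING1 (2.17%, against 1.66% of all genes). Its RNF2 peaks were 379 and 351 bp wide, and the nearest RING1 peak of set A lay 261073 bp away. DKK1, FRZB and DKK3 had both proteins in set A alone. DKK1, an inhibitor needed for head formation in mouse, had 4.90 for RNF2 and 4.21 for RING1, FRZB had 3.82 and 3.66, and DKK3 had 3.37 and 4.15. DKK4 had RNF2 of set A alone (3.67) under a peak that also met an end of VDAC3, a call it shared with RSPO4 (4.35% of members, against 11.4% of all genes).

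Among the R-spondins, RSPO2 had the highest RNF2 value of any member in set A and the second highest, after WNT6, in set B. RSPO2, a factor of limb and lung development, had RNF2 fold enrichments of 9.55 and 5.47 (sets A and B) and a RING1 value of 6.05. In RNF2 of set A this placed its peak at the 98.4th percentile of fold. RSPO3, needed for placenta and vessels in mouse, had 4.73 and 3.60 for RNF2 and 3.93 for RING1. RSPO1 had RNF2 of set B alone (3.84, 398 bp), and RSPO4, a nail development factor, had RNF2 of set A alone (3.41, 286 bp). With FZD3, RSPO1 was 1 of 2 members with RNF2 of set B as the only call in the 4 lists (4.35%, against 0.664% of all genes).

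LEF1, a transcription factor that acts with β-catenin, had the second highest RNF2 value of any member in set A. LEF1 (chr4:108047548-108168932) had 8.82 and 4.39 for RNF2 (sets A and B), and 6.42 for RING1. Its peaks of 7157 to 8941 bp lay around the outer 5′ end, which they shared with the uncharacterised gene LOC124900752. AXIN2, a negative regulator of the pathway and one of its common target genes, had 4.95 and 3.98 for RNF2 and 4.53 for RING1, and its RNF2 peak was 1916 bp wide in set A and 378 bp in set B. Across the 24 members with RNF2 in both sets, 21 had a higher value in set A, and WNT6, WNT11 and WIF1 did not. The median over all genes with an RNF2 peak was also higher in set A (4.33) than in set B (3.85). The lists were called separately, so values of different lists show no change in binding.

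**Figure D4:**
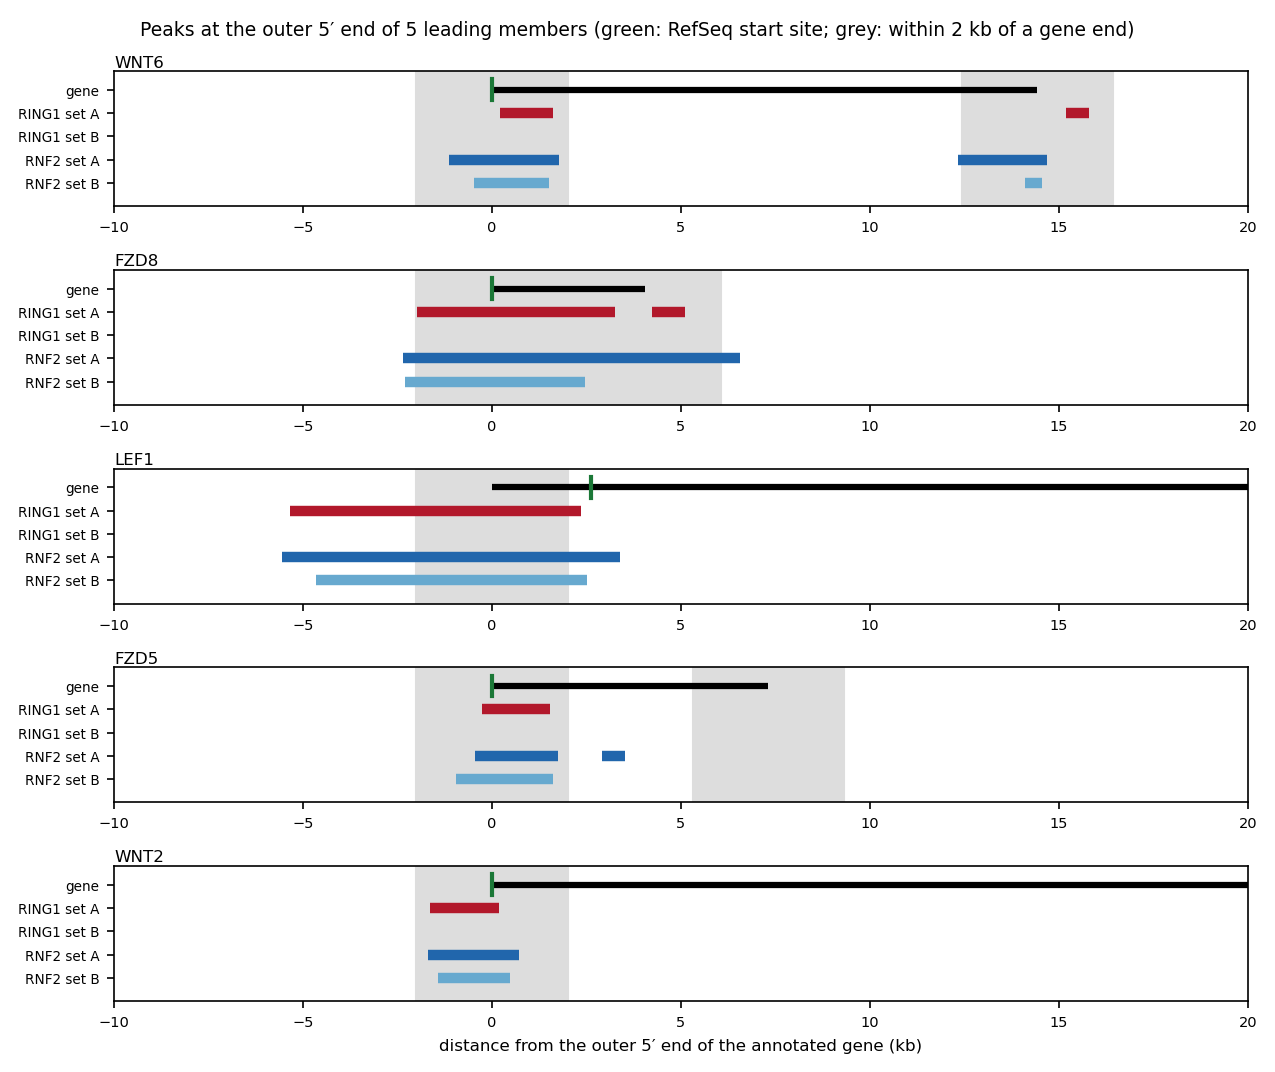
Peaks (coloured bars, 1 line per list) at WNT6, FZD8, LEF1, FZD5 and WNT2, by distance in kb from the outer 5′ end of the gene (black), with RefSeq start sites in green and the windows of 2 kb around gene ends in grey. RING1 of set A and RNF2 of both sets overlap around the 5′ end of each gene, and the line of RING1 set B is empty.

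RING1 and RNF2 peaks mostly fell on the same stretches at the members. Of 41 RING1 peaks of set A at members, 35 (85.4%) overlapped an RNF2 peak of set A, against 82.1% of all RING1 peaks of set A. Of 38 RNF2 peaks of set A at members, 31 (81.6%) overlapped RING1 of set A, against 61.4% of all, and 24 (63.2%) overlapped RNF2 of set B, against 26.2%. In the reverse direction 24 of 27 RNF2 peaks of set B at members (88.9%) overlapped RNF2 of set A, against 76.4% of all. At the 31 members with both proteins in set A, RNF2 peaks covered more bases at 26, and RING1 peaks covered more at WNT4, WNT9A, WNT10B, WNT11 and DKK3. The same share over all genes is not given here. Over all genes with a peak the median width was also larger for RNF2 of set A (1156 bp) than for RING1 of set A (802 bp). Overlap depends on peak width, which was larger at the members, and its part in these shares was not tested.

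A start site inside a gene brought peaks to members with none at a gene end. At gene ends, 9 members had no peak in any list (19.6%, against 40.6% of all genes): WNT2B, WNT3, WNT5A, WNT5B, WNT8A, WNT9B, WNT16, SFRP5 and TCF7. The RefSeq promoter table gives a start site and strand for 32 of the 46 members, and 5 of these 9 had a peak within 2 kb of a start site that lies inside the gene. WNT5A, the main ligand of β-catenin-independent signalling, has start sites 17957 and 23865 bp inside its outer 5′ end. In set A both start sites lay under a RING1 peak (4.12, 7897 bp) and an RNF2 peak (5.10, 8569 bp), and in set B an RNF2 peak (4.31, 5170 bp) lay between them. TCF7, a transcription factor of the same family as LEF1, had 4.73 and 3.17 for RNF2 and 4.58 for RING1 at its start site 7395 bp inside the gene, and no peak at the one farther in. WNT16, a ligand of bone, had 4.48 for RNF2 and 4.22 for RING1 in set A at a start site 3633 bp inside. WNT2B had 4.31 and 3.31 for RNF2 and no RING1 at its inner start site, and WNT5B had a single RNF2 peak of set A (3.54, 420 bp).

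With start sites added to gene ends, RNF2 of set A was at 39 members (58.5% of all genes) and RNF2 of set B at 29 (22.9%), and RING1 was at 35 in set A (48.0%) and at 0 in set B (1.43%). The 4 members with no peak by either rule were WNT3, WNT8A, WNT9B and SFRP5. The nearest RNF2 peaks of set A lay 104018 bp from WNT3, a ligand of early axis formation in mouse, 43730 bp from WNT8A, 35972 bp from WNT9B and 29118 bp from SFRP5. At the start sites of the 32 members in the table, RING1 of set A was within 2 kb at 21 (47.1% of genes in the table), RING1 of set B at 0 (1.19%), RNF2 of set A at 25 (58.3%) and RNF2 of set B at 17 (21.5%). A start site lay directly under a RING1 peak of set A at 12 of these 32 members, against 35.6% of genes in the table. That share of members was close to the share of all genes in the table. For RING1 of set B this held at 0 of the 32 members (against 0.499% of genes in the table). For RNF2 it held at 20 in set A (against 49.6%) and at 11 in set B (against 14.6%). The table has no start site for 14 members, among them WNT7B, WNT11, FZD2, FZD7, FZD10 and AXIN2.

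**Figure D5:**
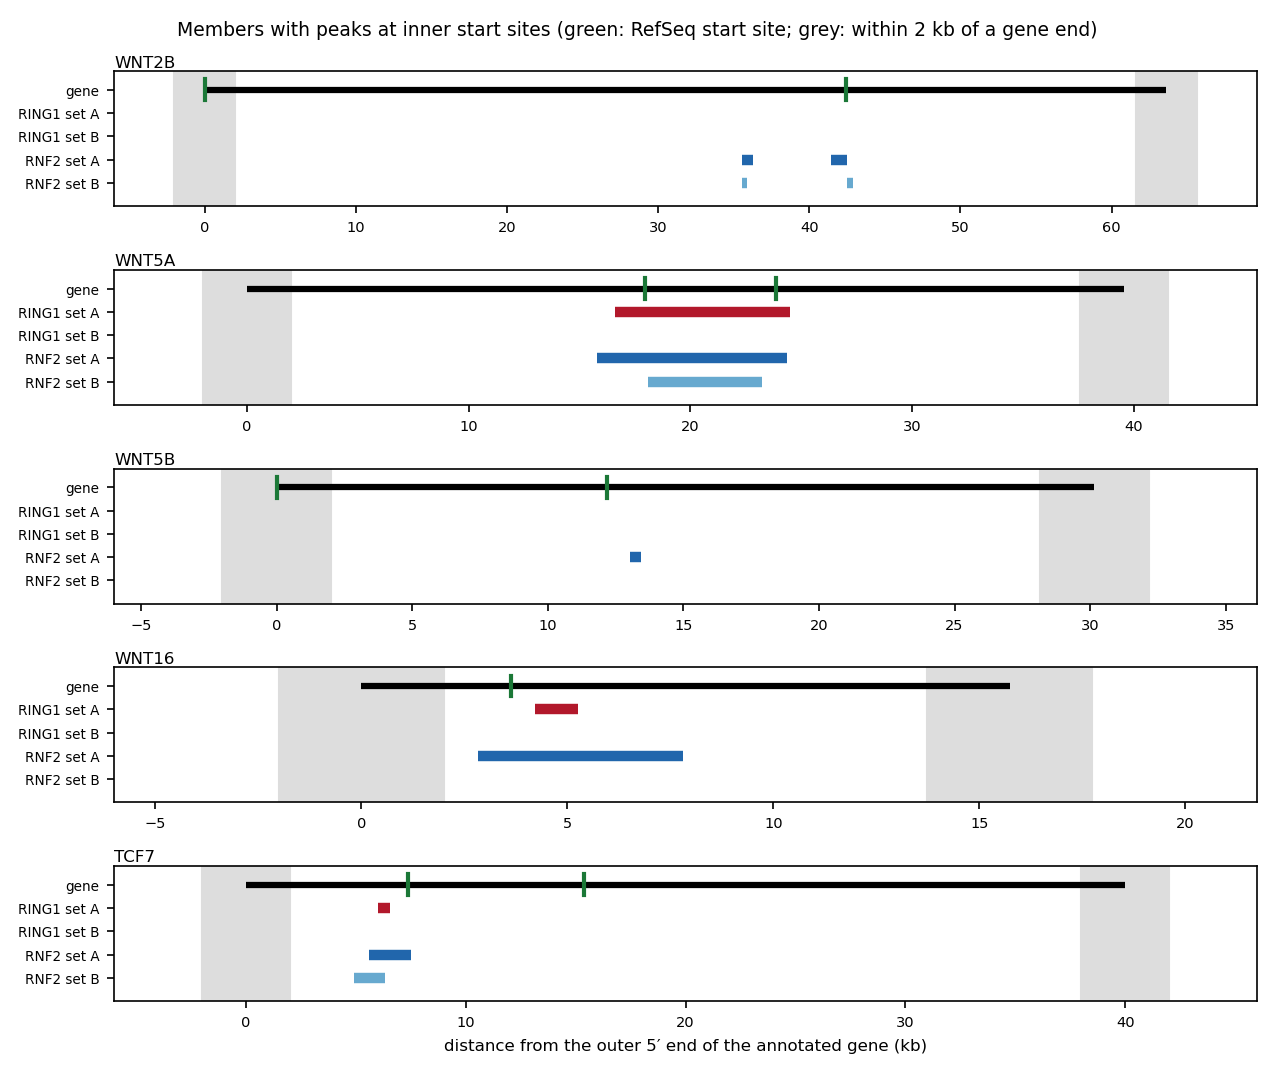
Peaks (coloured bars, 1 line per list) along WNT2B, WNT5A, WNT5B, WNT16 and TCF7, by distance in kb from the outer 5′ end of the gene (black), with RefSeq start sites in green and the windows of 2 kb around gene ends in grey. All peaks shown lie outside the grey windows, and those of WNT5A cover 7897, 8569 and 5170 bp around its 2 start sites.

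PRC1 is known to be recruited to unmethylated DNA rich in CpG, so the promoter sequences of the leading members are shown beside those of members without a peak. The 250 bases before the RefSeq start site (GRCh38.p14, each 5′ to 3′ on the gene's strand) are given with every CpG in capitals. WNT6 (chr2:218859555-218859804, plus strand), FZD8 (chr10:35642297-35642546, minus strand) and LEF1 (chr4:108166302-108166551, minus strand) were the leading members by RNF2 among those with a sequence to print. WNT8A (chr5:138083783-138084032, plus strand) and WNT9B (chr17:46851333-46851582, plus strand) had the fewest and the most CpG among the 4 members with no peak, and were chosen after their values were seen.
WNT6: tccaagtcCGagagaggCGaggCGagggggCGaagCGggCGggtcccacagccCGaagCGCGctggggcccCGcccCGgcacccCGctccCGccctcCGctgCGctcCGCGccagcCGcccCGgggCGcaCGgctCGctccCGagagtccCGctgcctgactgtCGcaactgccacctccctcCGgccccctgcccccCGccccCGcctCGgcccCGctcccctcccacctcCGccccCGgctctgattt
FZD8: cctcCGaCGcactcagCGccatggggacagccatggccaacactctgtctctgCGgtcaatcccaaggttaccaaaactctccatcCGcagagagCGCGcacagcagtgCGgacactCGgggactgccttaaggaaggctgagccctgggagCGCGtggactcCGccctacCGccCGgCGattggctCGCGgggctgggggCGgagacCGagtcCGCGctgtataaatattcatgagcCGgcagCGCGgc
LEF1: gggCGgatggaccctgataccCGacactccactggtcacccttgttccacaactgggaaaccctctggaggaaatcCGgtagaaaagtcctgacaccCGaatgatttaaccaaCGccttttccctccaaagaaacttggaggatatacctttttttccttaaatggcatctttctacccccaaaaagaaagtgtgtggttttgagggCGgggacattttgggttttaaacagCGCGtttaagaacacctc
WNT8A: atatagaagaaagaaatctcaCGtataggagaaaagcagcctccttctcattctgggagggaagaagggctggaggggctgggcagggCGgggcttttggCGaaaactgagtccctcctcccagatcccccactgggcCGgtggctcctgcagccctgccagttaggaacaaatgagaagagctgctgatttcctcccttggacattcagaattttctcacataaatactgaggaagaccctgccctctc
WNT9B: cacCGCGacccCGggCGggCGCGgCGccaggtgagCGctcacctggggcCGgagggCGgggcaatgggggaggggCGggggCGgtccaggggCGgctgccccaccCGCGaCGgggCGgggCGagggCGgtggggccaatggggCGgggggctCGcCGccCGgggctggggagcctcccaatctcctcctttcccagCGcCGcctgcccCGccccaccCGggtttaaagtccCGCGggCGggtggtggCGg

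These stretches held 32 CpG in WNT6, 24 in FZD8 and 8 in LEF1, against 4 in WNT8A and 31 in WNT9B. The WNT6, FZD8 and LEF1 stretches overlapped RNF2 peaks of both sets, and the FZD8 stretch overlapped RING1 of set A as well. A high CpG count occurred with a peak at WNT6 and without one at WNT9B, and a low one near the inner edge of the LEF1 peaks. The LEF1 start site lies 2631 bp inside the outer 5′ end of the gene. The RNF2 peak of set A covered the whole LEF1 stretch, that of set B only part of it, and the RING1 peak of set A did not reach it. The 8 CpG of LEF1 thus do not describe the sequence under its peaks of 7157 to 8941 bp as a whole. Over the whole table window (250 bases before to 50 after the start site), the median count was 29.5 CpG at the 26 member promoters with RNF2 of set A within 2 kb and 23 at the 10 without. Over all promoters of protein-coding genes these medians were 27 and 7.0. WNT9A (53), WNT3A (49) and WNT4 (47) had the most CpG among members, and WNT8A and WNT8B (4 each) and 1 start site of TCF7 (3) the fewest. The TCF and LEF binding motif CTTTGAT, searched on both strands, was in the window of 0 of 32 members and in 1.98% of all 22199 promoters, and the variant CTTTGTT was in those of WNT3, DKK1 and TCF7 and in 4.30% of all. These are matches of letters in a short window and say nothing of binding.

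RNF2 of set B was at 56.5% of the 46 members, at 28.0% of 50 other genes of the pathway and at 21.7% of all genes. The 50 other genes are co-receptors, intracellular components, planar polarity genes and feedback regulators. Among these, RING1 of set A was at 33 of 50 and RING1 of set B at 0 (against 1.32% of all genes). RNF2 of set A was at 40 and RNF2 of set B at 14. All 14 had RNF2 in both sets (28.0%, against 20.8% of all genes). For RING1 of set A the shares were 69.6% of the members, 66.0% of the other pathway genes and 45.6% of all genes, and for RNF2 of set A they were 73.9%, 80.0% and 56.1%. AXIN1, a scaffold of the β-catenin destruction complex, had the highest smaller value, with 6.89 and 6.34 for RNF2 and 8.40 for RING1. CELSR3, a planar polarity cadherin, had 9.24 and 4.94 for RNF2 and 8.14 for RING1, KREMEN2, a receptor of DKK proteins, had 6.42 and 4.72 and 6.01, and TRABD2A, a protease that inactivates WNT ligands, had 6.85 and 4.67 and 4.09. The difference between the 2 groups of genes was not tested.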

How the data were processed

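CUT&RUN libraries of wild-type neural progenitor cells were made with a commercial kit, per the labels' protocols. Tools listed without roles in the submitters' processing notes are MACS2 2.2.9.1, deepTools 3.5.2, bedtools 2.30.0, SAMtools 1.9, Picard 2.8.1 and BWA 0.7.17, and the build is hg38. Each of 4 deposited broad peak lists comes from 1 antibody and 1 set; the control and any pooling are stated in no source used here. The fold per peak is the authors' ratio of signal over background. The deposited −log10 q has a lowest value of 1.01. Depth is likewise unknown, and its part in the short RING1 list of set B was not tested. Of 30 samples in 5 genotypes, only these wild-type lists and the authors' consolidated regions (3 columns, no measurement) were analysed here.

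The 22 peaks off the named chromosomes were left out. A gene had a peak where at least 1 bp lay within 2 kb of either annotated gene end (RefSeq, GRCh38.p14), and the highest fold was used where several did. Start sites and promoter sequences came from the RefSeq promoter table. No p-value was computed, since each antibody has 2 lists, and peak lists of the IgG control libraries were not used here. The members and gene lists were chosen with earlier results of these data known. Members with full values were the 10 leading by the smaller RNF2 fold, those in no list, those in set B alone and the widest peaks per class; all others were named to account for every member. Alternatives were windows of 1 and 5 kb, extended gene bodies, start sites only, a −log10 q of at least 5, equal list lengths, an overlap of 200 bp, shared peaks counted once, peaks merged within 1 kb and each set left out. Gene assignment was tested on simulated data. Python 3.11.15, numpy 2.4.6, pandas 2.3.3 and matplotlib 3.10.9 were used.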

Additional observations from a re-analysis of the deposited data

How the results depend on the processing

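Of 58 recomputed counts of members with a peak, 45 stayed within 1.5 times the reported count. The 45 include counts for RING1 of set B and RING1 in both sets that stayed at 0. A limit of 1.5 times has no meaning for those. With windows of 5 kb, RING1 of set B and RING1 in both sets were at 1 member, FZD10. With start sites alone, which 32 members have, RING1 of set A was at 21 members and RNF2 of set B at 17. By gene ends the same 32 members gave 20 and 15. These 2 counts are thus lower only because 14 members have no start site in the promoter table. RNF2 of set A and in both sets stayed within that limit. At a −log10 q of at least 5, RING1 of set A was at 4 members, RNF2 of set A at 11, RNF2 of set B at 3 and RNF2 in both sets at 2. In lists of 659 peaks these counts were 1, 3, 4 and 1; fewer peaks enter by construction. Leaving out 1 set gave 26 to 34 members for RNF2 in both sets and 0 to 32 for RING1 in both sets, so the count of 0 for RING1 rests on set B, whose RING1 list has 659 peaks. Windows of 1 kb, extended gene bodies, an overlap of 200 bp, members that share a peak counted once and, chosen after seeing the data, start sites added to gene ends changed no count by over 1.5 times. Merging peaks within 1 kb gave a median width at members of 1654 bp for RING1 of set A and left the others at 2411 and 1959 bp. No paired analysis was possible because the results come from no test and the lists carry no replicate number.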
